A study of Mus musculus with 2 samples.

Results

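The genes described here are the CCN family, the coactivators YAP and TAZ, and 2 genes widely used as readouts of their activity. They were chosen by symbol, as the rows of the deposited count table named *Ctgf*, *Cyr61*, *Nov*, *Wisp1*, *Wisp2*, *Wisp3*, *Yap1*, *Wwtr1*, *Ankrd1* and *Amotl2*. These are 10 of 24421 rows, and each of the 10 names matched 1 row. All 10 were among the 14730 genes with at least 10 counts over both libraries, to which the folds and background percentages below refer. The study sequenced mRNA from primary chondrocytes of the rib cartilage of newborn mice and from primary dermal fibroblasts of newborn dorsal skin, with 1 library of each. Both cell types were released with collagenase, chondrocytes in a warm digestion and fibroblasts in a longer, cold one at a lower concentration. The isolation thus differed together with the cell type. Chondrocytes were used within 2 passages, and the fibroblasts served as the control cell type. The strain, sex and number of animals behind each library, and the number of passages of the fibroblasts, are not given in the sources used here, and no treatment is named for either culture. With 1 library per cell type there is no replicate check, and the 95% intervals describe the error of counting alone (the reads carry no molecular identifiers and need not be independent molecules).

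CCN proteins are secreted matricellular proteins. They bind integrins, proteoglycans and growth factors in the matrix rather than serving as structural fibers. YAP and TAZ carry signals from cell shape, matrix stiffness and cell contact to the nucleus. They do not bind DNA themselves but act through the TEAD transcription factors, and the Hippo kinases MST and LATS hold them back by phosphorylation. *Ctgf* and *Cyr61* are the best-known target genes of this pathway, and *Ctgf* is known from cartilage, where its loss in mice disturbs growth plate development. The files hold mRNA counts, so neither the amount nor the location of YAP and TAZ protein was measured.

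The deposited names are older symbols. In RefSeq for GRCm38.p6, *Cyr61* is now Ccn1 (chr3:145646971-145649985), *Ctgf* is Ccn2 (chr10:24595442-24598683) and *Nov* is Ccn3 (chr15:54745910-54753762). *Wisp1* is Ccn4 (chr15:66891369-66923201), *Wisp2* is Ccn5 (chr2:163820752-163833146) and *Wisp3* is Ccn6 (chr10:39150970-39174376). *Yap1* lies at chr9:7931999-8004638 and *Wwtr1*, the gene for TAZ, at chr3:57455644-57575910. *Ankrd1* lies at chr19:36111965-36119844 and *Amotl2* at chr9:102717091-102733418. The row named *Taz* holds tafazzin, a mitochondrial enzyme, and was not used for the coactivator.

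The start regions of the YAP/TAZ target genes are shown because TEAD factors recognize a short motif that can be read in them. The motif searched was GGAATG, or CATTCC when read from the other strand. RefSeq start regions of 300 bases (250 before and 50 after a transcript start, GRCm38.p6) were at hand for 6 of the 10 genes, and were not for *Ctgf*, *Nov*, *Wisp1* and *Wisp2*. The motif was found for 5 of these 6 genes, and for *Ankrd1* it was found at 2 positions in the same region. Among all 27025 genes with such regions, 16.6% had it in at least 1 region, and 1.36% of all 32851 regions had it more than once. *Wisp3* had no match, but its region (chr10:39163745-39164044, minus strand) lies inside the annotated span of the gene. The bases before the outer end of that span were not searched. The sequences below are the 250 bases before the start, 5′ to 3′ on the strand of the gene, with the motif in capitals. That of *Cyr61* covers chr3:145649986-145650235 on the minus strand, that of *Ankrd1* chr19:36119845-36120094 on the minus strand and that of *Amotl2* chr9:102717554-102717803 on the plus strand.
Cyr61: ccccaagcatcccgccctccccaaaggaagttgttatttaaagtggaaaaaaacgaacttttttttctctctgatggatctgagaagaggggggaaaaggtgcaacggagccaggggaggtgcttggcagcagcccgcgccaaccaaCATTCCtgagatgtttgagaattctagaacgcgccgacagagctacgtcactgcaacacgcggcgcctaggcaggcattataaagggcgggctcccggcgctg
Ankrd1: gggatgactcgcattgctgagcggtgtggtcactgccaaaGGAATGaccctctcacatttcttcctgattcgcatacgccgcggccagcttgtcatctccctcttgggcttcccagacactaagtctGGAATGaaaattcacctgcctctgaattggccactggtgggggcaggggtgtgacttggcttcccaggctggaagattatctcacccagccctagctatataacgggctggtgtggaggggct
Amotl2: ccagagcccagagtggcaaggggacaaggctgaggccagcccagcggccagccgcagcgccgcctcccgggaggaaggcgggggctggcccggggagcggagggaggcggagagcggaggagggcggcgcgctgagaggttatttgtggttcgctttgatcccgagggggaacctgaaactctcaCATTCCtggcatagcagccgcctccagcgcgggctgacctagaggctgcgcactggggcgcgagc
In *Cyr61* the motif spans bases 103 to 98 before the start, and in *Amotl2* bases 65 to 60 before an internal start. The *Amotl2* stretch lies inside the annotated span of that gene and not before it. *Ankrd1* has it at bases 210 to 205 and at bases 123 to 118. The start regions of *Yap1* (bases 141 to 136) and *Wwtr1* (bases 136 to 131) also hold it. A CArG box, the motif of serum response factor, was found in no start region of the 6 genes. As only 1.81% of all genes had one, none among 6 was the likely outcome and sets these genes apart in no way. Sites outside these regions were not searched. A match says only that these letters are present.

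The chondrocyte library held 18788599 counts and the dermal fibroblast library 17563724. Counts were scaled with edgeR TMM factors of 0.954 and 1.05, so that 1 count was 0.0558 CPM (the count scaled to library size) in chondrocytes and 0.0543 CPM in dermal fibroblasts. All 9 chondrocyte markers were over 2-fold higher in chondrocytes (summed level 103876 CPM against 23.9 CPM), with *Col2a1* and *Matn1* at 0 counts in dermal fibroblasts. Of 9 dermal fibroblast markers, 8 were over 2-fold higher in dermal fibroblasts, and *Lum*, with 3191 and 2881 counts, was within 2-fold.

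The CCN family divided between the cell types. *Ctgf* and *Cyr61* were higher in chondrocytes, *Nov*, *Wisp1* and *Wisp2* were higher in dermal fibroblasts, and *Wisp3* was close to undetected in both. All 6 lay more than 2-fold apart, 3 in each direction. Of all 14730 genes, 12.0% were over 2-fold higher in chondrocytes and 16.2% over 2-fold higher in dermal fibroblasts. Counted over the 10 genes, 4 were over 2-fold higher in chondrocytes and 3 in dermal fibroblasts, or 7 of 10 against 28.2% of all genes in either direction. The whole counting interval lay past 2-fold for the same 4 and 3 genes, against 7.00% and 10.5% of all genes. These interval shares are not like for like. Intervals narrow with more counts, and all genes include many with few counts, while most of the 10 are counted far more often. These libraries come from bulk cultures, in which fewer cells of a type and less RNA per cell cannot be told apart.

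**Figure D1:**
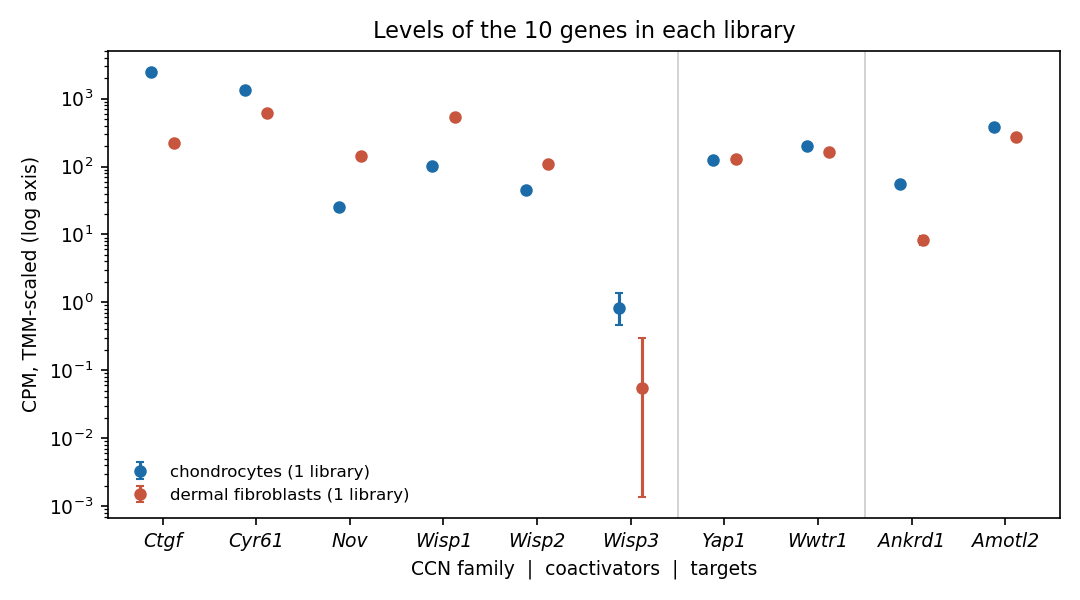
Level of each gene in the chondrocyte and the dermal fibroblast library, as TMM-scaled CPM on a log axis, with 95% Poisson intervals of the counts as bars (often smaller than the point). *Ctgf* reached 2444 CPM in chondrocytes against 225 CPM in dermal fibroblasts, while *Yap1* and *Wwtr1* lay close together in both.

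*Ctgf*, a secreted protein induced by TGF-β and by mechanical load, was counted 43816 times in chondrocytes and 4141 times in dermal fibroblasts, which is 2444 and 225 CPM. It was 10.9-fold higher in chondrocytes (interval 10.5 to 11.2). *Ctgf* was the gene with the 22nd highest count in the chondrocyte library and the 683rd highest in the dermal fibroblast library. Of the 14730 genes, 256 had a fold at least as high, itself included. *Cyr61*, an immediate-early gene whose product binds αv integrins, was counted 24254 times in chondrocytes and 11351 times in dermal fibroblasts. Its levels were 1353 and 617 CPM, and it was 2.19-fold higher in chondrocytes (interval 2.15 to 2.24). *Cyr61* ranked 54th by count in chondrocytes and 178th in dermal fibroblasts, so that it was abundant in both cell types. Its fold was near the threshold and was 1.997 when total counts replaced the TMM factors.

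The ratio of these 2 genes does not depend on scaling or on gene length when it is compared between libraries. For each *Cyr61* count there were 1.81 *Ctgf* counts in chondrocytes against 0.365 in dermal fibroblasts, a 4.95-fold difference (exact conditional interval 4.76 to 5.15). The chondrocyte library thus differed more in *Ctgf* than in *Cyr61*. Markers of hypertrophic chondrocytes, a stage in which *Ctgf* is known to be expressed, moved in the same direction. All 5 were over 2-fold higher in chondrocytes, with a summed level of 1265 CPM against 202 CPM, the latter mostly *Spp1* (185 CPM). None was at 0 counts in either library. In dermal fibroblasts, however, *Col10a1* had 3 counts (against 10378), *Ihh* 3 (against 41) and *Ibsp* 1 (against 349). The part of hypertrophic chondrocytes in the *Ctgf* difference was not tested.

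*Wisp1*, a WNT-induced gene known from skeletal progenitors and fibroblasts, was counted 1843 times in chondrocytes and 9940 times in dermal fibroblasts. Its levels were 103 and 540 CPM, a value 5.25-fold higher in dermal fibroblasts (interval from 4.996 to 5.52). *Nov*, a gene first described in nephroblastoma, had 449 and 2633 counts, or 25.0 and 143 CPM, and was 5.71-fold higher in dermal fibroblasts (interval from 5.16 to 6.32). These 2 folds could not be distinguished by counting error. There were 0.244 *Nov* counts per *Wisp1* count in chondrocytes and 0.265 in dermal fibroblasts, and the interval of the 1.09-fold difference ran from 0.971 to 1.22. *Wisp2*, which lacks the C-terminal cystine knot module of its relatives, had 796 and 2001 counts, or 44.4 and 109 CPM. It was 2.45-fold higher in dermal fibroblasts (interval from 2.25 to 2.66). This was a smaller difference than that of *Wisp1*, as the ratio of *Wisp2* to *Wisp1* counts was 2.15-fold higher in chondrocytes (interval 1.95 to 2.36).

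By raw count, *Wisp1* and *Ctgf* changed places between the libraries. Per kilobase of exon they were close in dermal fibroblasts (97.8 and 90.3 CPM per kb), and the lengths are uncertain. There were 0.0421 *Wisp1* counts per *Ctgf* count in chondrocytes and 2.40 in the dermal fibroblast library, a 57.1-fold difference (interval 53.7 to 60.6). Against *Cyr61*, the ratio of *Wisp1* was 11.5-fold higher (interval 10.9 to 12.2) and that of *Nov* 12.5-fold higher (interval 11.3 to 13.9) in dermal fibroblasts. The summed levels of keratinocyte, endothelial and macrophage markers were also higher in the dermal fibroblast library. For keratinocytes, 3 of the 5 tested markers were over 2-fold higher there (summed level 246 CPM against 8.87 CPM), and for endothelium 5 of 6 were (45.0 CPM against 14.5 CPM). Of the 6 macrophage markers, 1 was over 2-fold higher there, *Csf1r* at 2.62-fold, and their summed level was 169 CPM against 107 CPM. No marker of these lists was at 0 counts in either library, but *Krt5* had 1 count in chondrocytes against 1693, and *Krt15* had 1 and 2. Counts this low do not show that a cell type was present. The part of these cell types in the levels of *Nov*, *Wisp1* and *Wisp2* was not tested.

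*Wisp3*, a gene linked to a human cartilage disorder, was counted 15 times in chondrocytes and 1 time in dermal fibroblasts, or 0.837 and 0.0543 CPM. The ratio was 15.4, with an interval from 2.37 to 649. Counts under 3 were set to 3 for the fold used in the gene counts, which gave 5.14, and with a floor of 10 counts the fold was 1.54 and no longer past 2-fold. The annotated span of *Wisp3* shares 89 bp with that of *Tube1*, a tubulin gene with 103 and 60 counts. The strand setting of the counting is not given in the sources used here, so reads from the shared stretch cannot be assigned to either gene with certainty. The same holds for 2 other members, whose overlapping genes have no row in the counts. *Ctgf* shares 362 bp with the long noncoding RNA gene *Gm15270*, and *Wwtr1* shares 2520 bp with the transcribed pseudogene *Gm16016*.

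**Figure D2:**
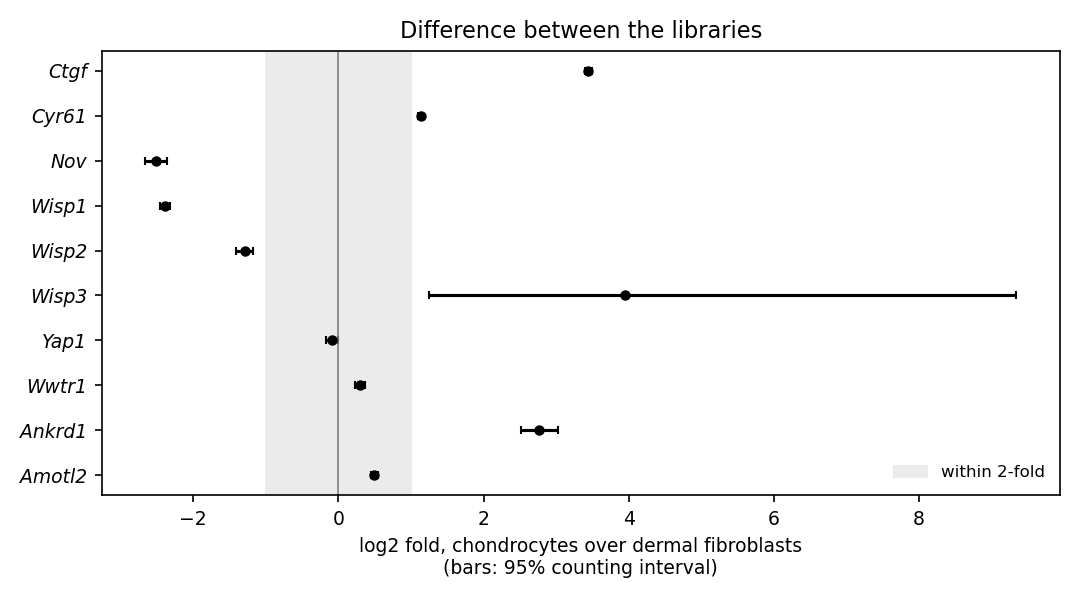
Log2 fold of each gene, chondrocytes over dermal fibroblasts, with its 95% counting interval as a bar and the range within 2-fold in gray. *Ctgf*, *Cyr61*, *Wisp3* (plotted at its ratio of 15.4, without the floor) and *Ankrd1* lie to the right of the gray range, *Nov*, *Wisp1* and *Wisp2* to the left, and *Yap1*, *Wwtr1* and *Amotl2* within it.

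Levels of different genes were compared per length, as CPM per kilobase of exon. Exon lengths were taken from GENCODE vM1, an annotation of the older NCBIM37 build that was used for lengths alone, and an unknown mix of isoforms leaves them uncertain. In chondrocytes *Ctgf* was the highest of the 10 genes at 982 CPM per kb, above 99.8% of the genes with a length. *Cyr61* followed at 667, *Amotl2* at 61.0, *Wwtr1* at 41.8, *Ankrd1* at 31.6 and *Wisp2* at 23.1 CPM per kb. *Wisp1* (18.6), *Yap1* (13.3), *Nov* (8.73) and *Wisp3* (0.590 CPM per kb) came last. In dermal fibroblasts *Cyr61* was the highest at 304 CPM per kb, above 99.0% of the genes, followed by *Wisp1* at 97.8, *Ctgf* at 90.3, *Wisp2* at 56.5 and *Nov* at 49.8 CPM per kb. *Amotl2* (43.2), *Wwtr1* (34.1), *Yap1* (14.1), *Ankrd1* (4.65) and *Wisp3* (0.0383 CPM per kb) were lower. The counting intervals of neighbors in this order overlapped for 0 of 9 pairs in chondrocytes and 0 of 9 pairs in dermal fibroblasts. These intervals leave out the uncertainty of the lengths, and the spread between cultures was not measured.

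The family as a whole made up 0.379% of the chondrocyte library and 0.171% of the dermal fibroblast library. Its summed level was 3971 and 1633 CPM, a 2.43-fold difference (interval 2.40 to 2.46). Of these sums, *Ctgf* alone was 2444 and 225 CPM. The sum does not stand for each member, as 3 of the 6 were over 2-fold higher in dermal fibroblasts. Per kilobase, *Ctgf* made up 57.7% and *Cyr61* 39.2% of the family in chondrocytes, and no other member passed 1.36%. In dermal fibroblasts *Cyr61* made up 50.8%, *Wisp1* 16.3%, *Ctgf* 15.1%, *Wisp2* 9.44% and *Nov* 8.33%. Chondrocytes thus held a family of 2 dominant members, and dermal fibroblasts 5 members with shares of 8.33% or more.

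**Figure D3:**
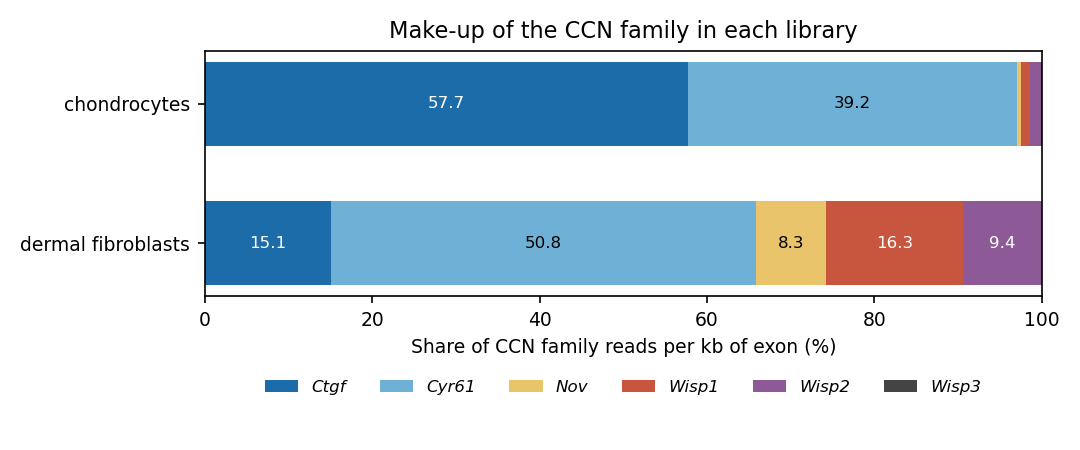
Share of each CCN gene in the summed reads per kilobase of exon of the family, for the chondrocyte and the dermal fibroblast library (percent, bars from 0 to 100). *Ctgf* and *Cyr61* fill 57.7% and 39.2% of the chondrocyte bar, and *Nov*, *Wisp1* and *Wisp2* are visible as wide blocks in the dermal fibroblast bar alone.

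The coactivators themselves differed little. *Yap1* was counted 2210 times in chondrocytes and 2408 times in dermal fibroblasts, or 123 and 131 CPM, a chondrocyte fold of 0.943 (interval 0.889 to 0.999) that became 1.03 when the libraries were scaled by *Actb*. *Wwtr1* had 3581 and 2996 counts, or 199.8 and 163 CPM, and was 1.23-fold higher in chondrocytes (interval 1.17 to 1.29). There were 0.617 *Yap1* counts per *Wwtr1* count in chondrocytes and 0.804 in dermal fibroblasts. Free of scaling, this was a 1.30-fold difference (interval 1.21 to 1.41), so the balance was shifted toward TAZ mRNA in the chondrocyte library by more than counting error.

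The 2 target genes outside the CCN family did not move by the same amount. *Ankrd1*, which codes for a muscle ankyrin repeat protein and responds strongly to stretch, was counted 999 times in chondrocytes and 151 times in dermal fibroblasts. Its levels were 55.7 and 8.20 CPM, a 6.80-fold difference (interval 5.72 to 8.12). *Amotl2*, an angiomotin that binds YAP and is itself induced by it, had 6877 and 5004 counts, or 384 and 272 CPM. It was 1.41-fold higher in chondrocytes (interval 1.36 to 1.46) and within the 2-fold threshold. The ratio of *Ankrd1* to *Amotl2* counts was 4.81-fold higher in chondrocytes (interval 4.04 to 5.77). Relative to *Ctgf*, in contrast, *Ankrd1* was 1.60-fold higher in dermal fibroblasts (interval from 1.33 to 1.91).

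Because *Ankrd1* is also expressed in muscle, the muscle markers are given beside it. Of 12 skeletal muscle markers, 6 were over 2-fold higher in chondrocytes and 0 in dermal fibroblasts, and their summed level was 2130 CPM against 1458 CPM, a 1.46-fold difference. None was at 0 counts in either library. The 2 most abundant, *Myh3* (7784 and 6497 counts) and *Actc1* (7288 and 7970 counts), lay within 2-fold. Other muscle markers, singled out after their values were seen, differed more in the direction of *Ankrd1*. *Pax7*, a marker of muscle stem cells, had 120 and 4 counts and was 30.8-fold higher in chondrocytes (interval 11.7 to 115). The myogenic factor *Myod1* was 4.82-fold higher there (2328 and 496 counts), *Tnnt3* 2.76-fold and *Des* 2.35-fold. *Ckm* went the other way, 1.43-fold higher in dermal fibroblasts (120 and 176 counts, interval 1.13 to 1.82). Of the 12 markers, 10 had a chondrocyte fold over 1, and the whole interval lay past 2-fold for 4. The part of muscle cells in the *Ankrd1* level, and in that of *Vgll2* given below, was not tested.

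The rest of the pathway was described with lists of its components, which are not wholly separate. *Lats2* is in the lists of Hippo kinases and of other targets. *Ptpn14* is in the lists of angiomotins and other regulators and of other targets. Both genes are counted and plotted in each of their lists. Genes that are named below because they make up a count of 6 or fewer were singled out after their values were seen. The median log2 fold over all tested genes was 5.6e-05, and the quartiles were -0.56 and 0.45. The counts of each list stand beside the 12.0% of all genes that were over 2-fold higher in chondrocytes and the 16.2% in dermal fibroblasts, and small lists near these shares are descriptions alone.

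The Hippo kinase module, which restrains YAP and TAZ, was nearly level. Of its 17 genes, 0 were over 2-fold higher in chondrocytes and 2 in dermal fibroblasts, with a median log2 fold of -0.16. The kinase *Lats2* (2111 and 2341 counts, chondrocyte fold 0.926) and *Map4k4* (5604 and 6446 counts, fold 0.893) were close to equal. The 2 genes beyond 2-fold were *Taok3*, 2.69-fold higher in dermal fibroblasts (interval from 2.39 to 3.03), and *Stk38*, 2.21-fold higher (interval 2.05 to 2.39), both serine/threonine kinases.

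The TEAD and VGLL genes, through which YAP and TAZ reach DNA or which compete with them for TEAD, differed more. Of the 7 tested, 2 were over 2-fold higher in each direction, with a median log2 fold of -0.18, and *Vgll1* had 0 counts in both libraries. *Vgll3*, a TEAD cofactor, was counted 425 times in chondrocytes and 3127 times in dermal fibroblasts, 7.16-fold higher in the latter (interval 6.47 to 7.95). *Vgll2*, a cofactor known from skeletal muscle, had 269 and 44 counts and was 6.28-fold higher in chondrocytes (interval 4.55 to 8.85). *Tead1* was the most abundant TEAD gene by count, with 2938 and 4253 counts, and lay within 2-fold (1.41-fold higher in dermal fibroblasts). *Tead4* was 2.83-fold higher in chondrocytes (interval 2.38 to 3.38) and *Tead3* 2.85-fold higher in dermal fibroblasts (interval from 2.53 to 3.21).

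Among 9 angiomotins and other regulators that bind or act on the pathway, 1 was over 2-fold higher in chondrocytes and 0 in dermal fibroblasts, with a median log2 fold of 0.10. With *Actb* scaling, 3 of the 9 were over 2-fold higher in chondrocytes. The 1 gene was *Ajuba*, a LIM protein that inhibits LATS kinases, at 2.65-fold (interval 2.40 to 2.93). *Amotl1*, a relative of *Amotl2*, had 3439 and 3300 counts, a fold of 1.07, and the atypical cadherin *Fat1* was 1.87-fold higher in chondrocytes (interval 1.81 to 1.93).

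Other genes known as YAP/TAZ targets did not follow *Ctgf*, *Cyr61* and *Ankrd1* as a group. Of 18 such genes, 4 were over 2-fold higher in chondrocytes and 6 in dermal fibroblasts, with a median log2 fold of 0.13. With the whole interval beyond 2-fold, the numbers were 3 and 5. *Tgfb2*, a TGF-β ligand, had 1426 and 217 counts and was 6.75-fold higher in chondrocytes (interval 5.85 to 7.82). *Igfbp3*, which binds insulin-like growth factors, had 838 and 10717 counts and was 12.5-fold higher in dermal fibroblasts (interval from 11.6 to 13.4). The receptor tyrosine kinase *Axl* (2411 and 9405 counts) was 3.80-fold higher in dermal fibroblasts (interval from 3.63 to 3.97), and *Ccdc80* (7146 and 12604 counts) was 1.72-fold higher there. The other genes over 2-fold higher in chondrocytes were *Crim1* (4.91-fold), *Nt5e* (4.37-fold) and *Fjx1* (2.01-fold, interval 1.55 to 2.62). Beside *Igfbp3* and *Axl*, those over 2-fold higher in dermal fibroblasts were *F3* (5.81-fold), *Rbms3* (5.30-fold), *Dock5* (3.81-fold) and *Myof* (2.01-fold, interval 1.93 to 2.09).

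**Figure D4:**
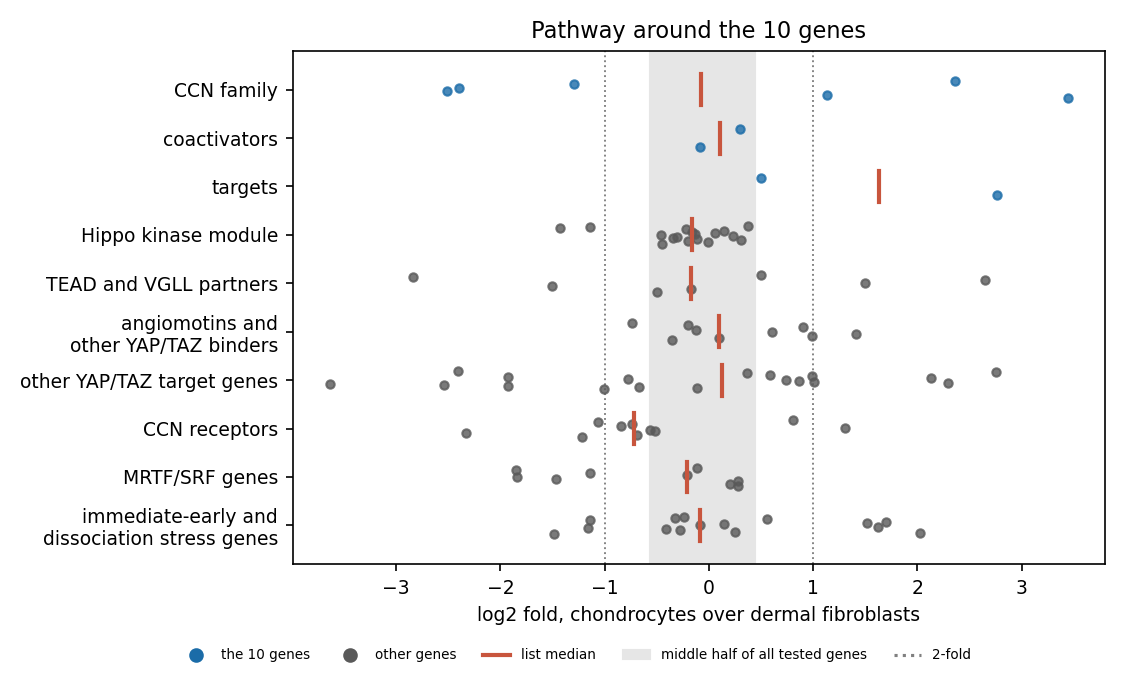
Log2 fold (chondrocytes over dermal fibroblasts) of each gene of the pathway lists with at least 10 counts over both libraries, with list medians as vertical bars, 2-fold as dotted lines and the range between the quartiles of all tested genes in gray. The Hippo kinase genes cluster near 0 with a median of -0.16, while the CCN family (*Wisp3* at its fold of 5.14 with the floor) and the other YAP/TAZ target genes spread to both sides.

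Of 10 receptors for CCN proteins, 1 was over 2-fold higher in chondrocytes (12.0% of all genes) and 3 in dermal fibroblasts (16.2% of all genes), with a median log2 fold of -0.72. With *Actb* scaling the 3 became 2. *Lrp1*, an endocytic receptor that binds CTGF, had 19284 and 41391 counts and was 2.09-fold higher in dermal fibroblasts (interval from 2.05 to 2.13). *Itgb3* was 5.04-fold higher there (135 and 699 counts, interval 4.19 to 6.11) and *Itgav*, its partner in the αvβ3 integrin, 2.32-fold higher (interval 2.204 to 2.44). *Itga6*, a laminin receptor subunit that also binds CYR61, was 2.46-fold higher in chondrocytes (interval 2.28 to 2.66). *Itgb1*, the common β1 subunit, had 11953 and 19864 counts and lay within 2-fold.

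*Ctgf*, *Cyr61* and *Ankrd1* also respond to serum response factor and its MRTF coactivators and, in the case of *Cyr61*, to immediate-early signals such as those of cell dissociation. Of 9 MRTF/SRF genes, 0 were over 2-fold higher in chondrocytes (12.0% of all genes) and 4 in dermal fibroblasts (16.2% of all genes). The other 5 lay within 2-fold, and the median log2 fold of the list was -0.21. Their summed level was 1721 CPM in chondrocytes against 3379 CPM in dermal fibroblasts. The 3 genes with a chondrocyte fold over 1 were *Srf* (1.22), *Mkl1* (1.15) and *Mkl2* (1.21). *Acta2*, smooth muscle actin, had 9075 and 25773 counts and was 2.77-fold higher in dermal fibroblasts (interval from 2.70 to 2.83), and *Myl9* was 3.62-fold higher there. *Tpm1*, a tropomyosin and the other of the 2 most abundant genes of this list, had 10162 and 11272 counts, a chondrocyte fold of 0.926. Of 15 immediate-early and dissociation stress genes, 4 were over 2-fold higher in chondrocytes and 3 in dermal fibroblasts, and their summed levels were 891 and 890 CPM. *Egr1* (3900 and 5319 counts) and *Junb* (1770 and 2205 counts) lay within 2-fold, *Fosb* was 4.06-fold higher in chondrocytes (83 and 21 counts, interval 2.49 to 6.90) and *Fos* 2.80-fold higher in dermal fibroblasts (interval from 2.47 to 3.19). The other 3 genes over 2-fold higher in chondrocytes were *Dusp1* (3.25-fold), *Egr3* (3.07-fold) and *Atf3* (2.85-fold). The part of these signals in the levels of *Ctgf*, *Cyr61* and *Ankrd1* was not tested.

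Over the reported scaling and 5 others, the fold of *Ctgf* ran from 9.89 to 11.8 and that of *Ankrd1* from 6.18 to 7.40, both higher in chondrocytes. *Nov* ran from 5.24 to 6.27, *Wisp1* from 4.82 to 5.77 and *Wisp2* from 2.25 to 2.69, all higher in dermal fibroblasts. The range of *Amotl2* was 1.28 to 1.54 and that of *Wwtr1* 1.12 to 1.34.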

How the data were processed

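The submitters' processing notes name CASAVA 1.8.2, TopHat2 2.0.13, Bowtie2 2.2.3, SAMtools 0.1.19 and mm10 (GRCm38), and the libraries were stranded mRNA libraries read as 75 bp single ends. The authors deposited raw read counts per gene symbol, without normalization. The counting program, its annotation and its strand setting are not given in the sources used here. Both value columns were matched to a sample by name.

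From these counts, scaled levels and folds were computed with edgeR 4.0.16 (TMM factors) in R 4.3.3, and Python 3.11.15 with numpy 2.4.6, scipy 1.17.1 and pandas 2.3.3. Counts under 3 were set to 3 for folds, a fold over 2 was counted, and genes needed at least 10 counts over both libraries. Fold and share intervals are 95% Clopper-Pearson intervals, and ratios of 2 genes have exact conditional intervals. No p-value was computed. The alternatives were 5 scalings (total counts, DESeq2 1.42.0 size factors, upper quartile, *Actb*, and totals that leave out every gene in the top 10 of either library). Further alternatives were a floor of 1 or 10 counts, 1 count added to each value, a fold over 4, the interval wholly past 2-fold, other count minimums, and shares without lengths. An exon length was found for 91.0% of the tested genes. All 10 members were named, and from each pathway list the 2 most abundant genes and the largest fold past 2-fold in each direction among genes with at least 100 counts. The members, lists and gene pairs were chosen with earlier results of these data known. The calculations were tested on simulated data.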

Additional observations from a re-analysis of the deposited data

How the results depend on the processing

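No paired analysis was possible because the libraries carry no replicate numbers and each cell type was sequenced as 1 library. Of 80 fold values of the 10 genes under 8 alternatives, 63 stayed within the counting interval of the reported fold, 0 of the folds past 2-fold changed direction, and 1 value crossed equality (*Yap1* with *Actb*). The floors and the added count act on low counts and could hardly move any of the genes but *Wisp3*, so the 63 overstates stability. Total counts and *Actb* each moved *Ctgf*, *Cyr61*, *Wisp1*, *Wisp2*, *Yap1*, *Wwtr1* and *Amotl2* outside their counting intervals. Total counts moved the median log2 fold of all tested genes by -0.14 and *Actb* by 0.12. Of the 10 genes, 4 passed 2-fold toward chondrocytes, and this was 3 with total counts (*Cyr61* at 1.997), with a floor of 10 counts (*Wisp3*) and with a fold over 4. Scaling moved the counts of 3 lists. Other targets ran from 3 to 5 in chondrocytes (4 as reported) and from 5 to 6 in dermal fibroblasts (6), and receptors in dermal fibroblasts went from 3 to 2 with *Actb*. The angiomotins and other regulators over 2-fold higher in chondrocytes went from 1 to 2 with the upper quartile or without the top 10 genes of either library. With *Actb* they went to 3.

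A fold over 4 lowers counts by construction. All genes went from 1761 to 713 (chondrocytes) and from 2388 to 929 (dermal fibroblasts). The genes higher in chondrocytes went to 1 for TEAD and VGLL partners, 0 for angiomotins, 0 for receptors and 1 for immediate-early genes, and the genes higher in dermal fibroblasts to 0 for Hippo kinases, 1 for TEAD and VGLL partners, 3 for other targets, 1 for receptors, 0 for MRTF/SRF genes and 0 for immediate-early genes. All genes were 1031 and 1546 with the interval wholly past 2-fold, and 1035 and 1568 with at least 100 counts.

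Without lengths, the shares of the CCN counts were 61.6% *Ctgf*, 34.1% *Cyr61*, 0.631% *Nov*, 2.59% *Wisp1* and 1.12% *Wisp2* in chondrocytes, and 13.8%, 37.8%, 8.76%, 33.1% and 6.66% in dermal fibroblasts, so that *Wisp1* passed *Ctgf* there by more. Depth limits *Wisp3*, whose fold was 15.4 with a floor of 1 count, 8.16 with a pseudocount of 1 and 1.54 with a floor of 10 counts.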
